A study of Mus musculus with 4 samples.

Results

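The genes of mitochondrial ribosomal proteins described here were those whose deposited symbol begins with Mrpl or Mrps followed by a digit. This gave 76 genes measured by 126 probes, of 27436 genes and unnamed probes (41174 probes) on the array. By the structure of the ribosome 49 belong to the large subunit, Mrps18a and Mrps30 among them in spite of their names, and 26 to the small subunit. The remaining gene, Mrps36, encodes a component of the 2-oxoglutarate dehydrogenase complex, an enzyme of the citric acid cycle, and is counted with the 76 because its symbol fits. The probe standing for each of the 76 genes was well above background in both channels on all 4 arrays, so none was lost to the filter on dim probes, and none was saturated.

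The mitochondrial ribosome translates the few mRNAs that mitochondrial DNA encodes, all of them for subunits of the oxidative phosphorylation complexes. Its protein components are nuclear genes: they are made on cytosolic ribosomes, imported into the organelle and assembled there on mitochondrial rRNA into a small subunit, which reads the mRNA, and a large subunit, which forms the peptide bond. Hepatocytes, the main cells of the liver, are rich in mitochondria and depend on this machinery to renew their respiratory chain.

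Liver RNA of 4 male Wrn mutant mice was compared with that of 4 male wild-type mice on 4 two-colour arrays, each carrying RNA of 1 mutant (Cy5) and 1 wild-type mouse (Cy3). All were 3 months old and of strain C57Bl/6. The mutants had received 0.4% vitamin C in their drinking water from weaning, and the wild-type animals were untreated. Wrn encodes a DNA helicase of the RecQ family; its alteration in these mice is not described in the labels. In each ratio the mutation, the vitamin C and the dye differ at once and cannot be told apart: there is no dye swap, and mutants without vitamin C or wild-type mice with it were not analysed here. The labels call the arrays independent biological replicates.

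Across the whole array 82.5% to 96.1% of probes were well above background per channel, with array 1 the lowest in both channels. The arrays shared 1 slide and 1 scan time. Of the 3 Wrn probes that could be measured, 1 was higher in the mutant, at a log2 ratio of 0.41 ± 0.10 (limma adjusted p = 0.0118 over all probes), and the others, at 0.00 and -0.07, did not pass. Where they lie relative to the mutation is not known here, so they give no check of the labels. Of 7 hepatocyte markers 3 were higher in the mutant, led by albumin (Alb) at 0.85 ± 0.21 (SD, n = 4), and 1 was lower. Of 6 sinusoidal endothelial markers 2 were lower, and of 5 cholangiocyte markers 2 were lower. Probes of a marker could differ: Clec4g, the lowest endothelial marker, was at -0.35, and its other probes were at 0.04 and 0.11. No marker of Kupffer cells (6 genes), stellate cells (5), lymphocytes (5) or red cells (4) passed limma's test, with 0, 0, 2 and 0 of them at an unadjusted p under 0.05. Over the whole array 8421 of 26135 genes and unnamed probes had an unadjusted p under 0.05 in limma. The part of cell composition in the ratios below was not tested, and in bulk tissue fewer cells of a type and less RNA per cell cannot be told apart.

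The comparison asked which transcripts differ between liver of the treated mutants and liver of wild-type mice. Most mitochondrial ribosomal protein genes did not pass the test: 65 of the 76 did not, 7 were higher in the mutant and 4 were lower. Not passing does not show equal expression, and the means of the 65 ran from -0.22 to 0.19. Values are log2 ratios of mutant over wild type, and a gene passed where limma's moderated test, adjusted by Benjamini-Hochberg over all 26135 genes and unnamed probes tested, gave an adjusted p under 0.05. Over the whole array 6.64% were called higher and 5.57% lower, against 9.21% and 5.26% of these genes, so both shares lie near the background. The changes were small, the largest being 1.33-fold. The median of the 76 mean log2 ratios was 0.06, against 0.01 for all genes, and the means ran from -0.32 to 0.41. Ratios were above 0 on all 4 arrays for 19 genes (25%; 23.5% of all genes) and below 0 on all 4 for 9 (11.8%; 16.7% of all genes).

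The count of calls rested on every array. Without array 1, 2, 3 or 4, respectively, 2, 0, 6 and 2 genes were higher and 0, 0, 1 and 0 were lower. That is 2.63%, 0%, 9.21% and 2.63% of the 76, against 1.92%, 0.0727%, 5.13% and 1.76% of all genes, where calls fell as well. Without array 2, limma left 21 of the 76, and 6719 of 26135 over the whole array, at an unadjusted p under 0.05. It called only 19 genes on the whole array. Each of the 11 changed genes had ratios of 1 sign on every array, so leaving 1 array out could not turn its direction.

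**Figure D1:**
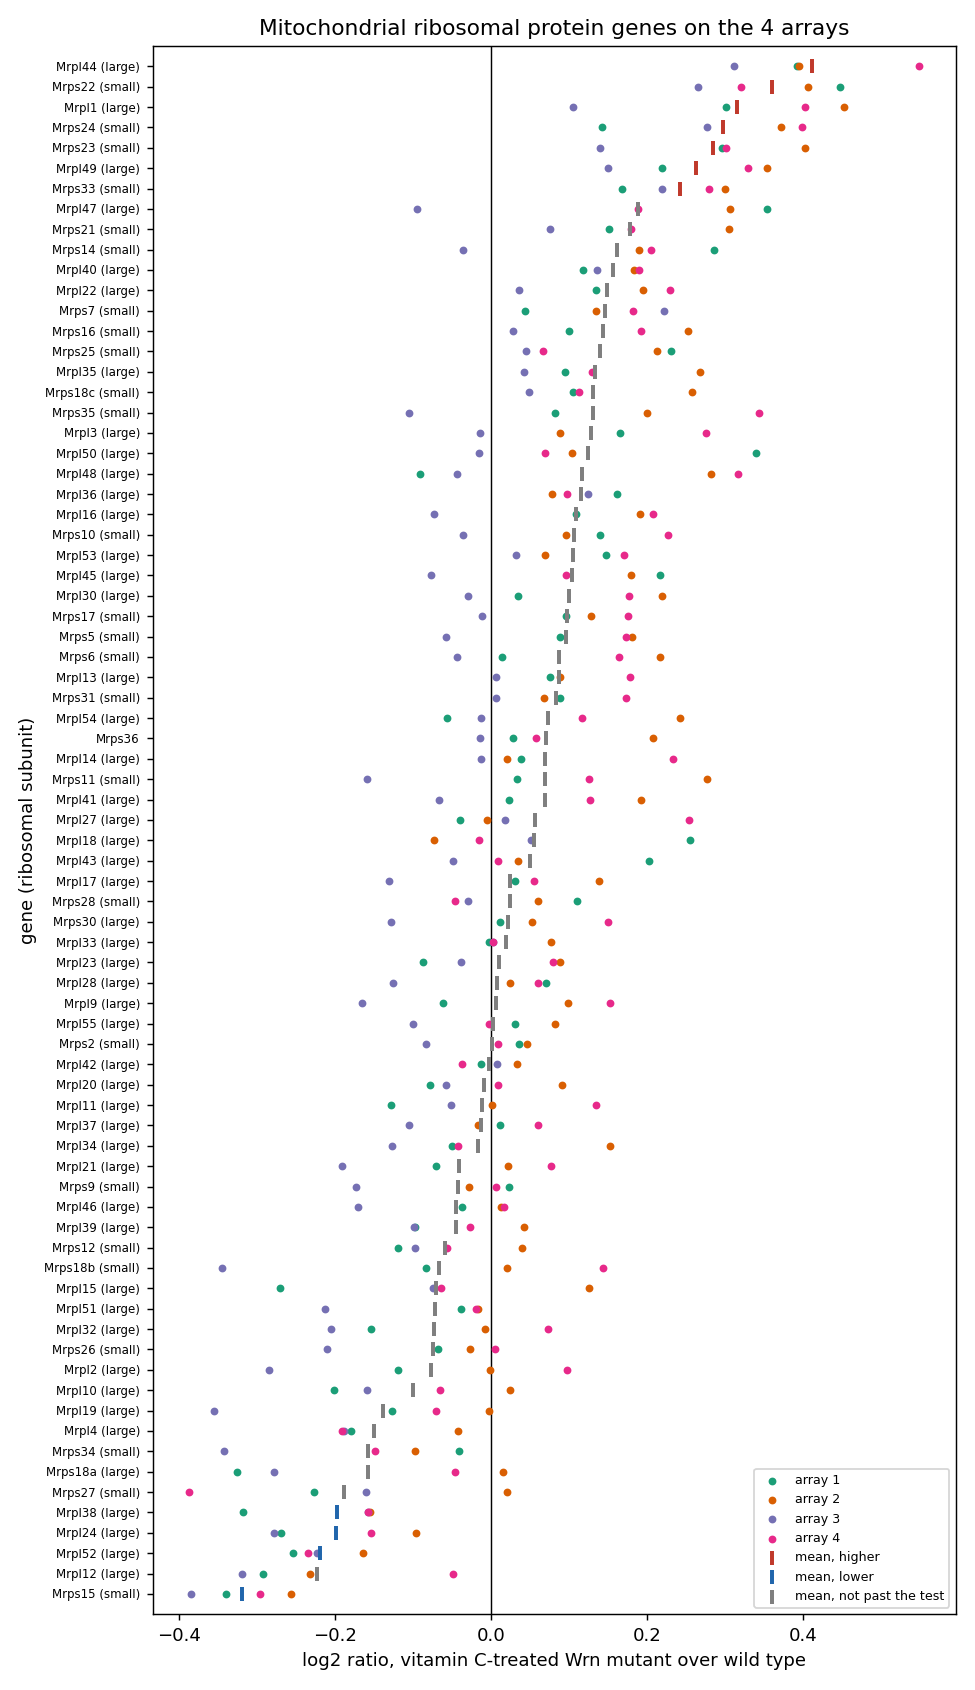
Log2 ratio of vitamin C-treated Wrn mutant over wild-type liver (x axis) for each of the 76 genes (y axis, ordered by mean), with 1 dot per array and a bar at the mean, coloured by the test. The 7 higher genes have all 4 dots to the right of 0 and the 4 lower genes all 4 to the left, and the dots of array 3 are the lowest for 53 of the 76 genes.

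Among the higher genes, Mrpl44, a large subunit protein with a ribonuclease III-like fold, had the greatest difference. Its log2 ratios on arrays 1 to 4 were 0.39, 0.39, 0.31 and 0.55, a mean of 0.41 ± 0.10 (SD, n = 4; limma adjusted p = 0.0137). In log2 intensity its mutant channels read 12.63, 12.49, 12.36 and 12.39 and its wild-type channels 12.24, 12.09, 12.05 and 11.84. The lowest mutant thus lay above the highest wild-type animal. Mrps22, a small subunit protein with no bacterial counterpart, had ratios of 0.45, 0.41, 0.27 and 0.32, a mean of 0.36 ± 0.08 (limma adjusted p = 0.0156). Its channels overlapped, with mutants from 11.70 to 12.04 and wild-type animals from 11.25 to 11.72, although the mutant was the higher animal on each array.

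Mrpl1, which forms the mobile stalk of the large subunit beside the exit site of tRNA, had ratios of 0.30, 0.45, 0.11 and 0.40 and a mean of 0.32 ± 0.15 (limma adjusted p = 0.0315). Array 3 was the low one. Mrps24, a small subunit protein near the entry of the mRNA channel, gave 0.14, 0.37, 0.28 and 0.40, with a mean of 0.30 ± 0.12 (adjusted p = 0.0261). The 4 mutant levels, from 13.50 to 13.56, were all above the 4 wild-type levels, from 13.13 to 13.36.

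The other higher genes were Mrps23 and Mrps33 of the small subunit and Mrpl49 of the large subunit, all without a bacterial counterpart. Mrps23 had ratios of 0.30, 0.40, 0.14 and 0.30 and a mean of 0.29 ± 0.11 (limma adjusted p = 0.0268). For Mrpl49 they were 0.22, 0.35, 0.15 and 0.33, with a mean of 0.26 ± 0.10 (adjusted p = 0.0280). Mrps33 was the steadiest of the 7, at 0.17, 0.30, 0.22 and 0.28 and a mean of 0.24 ± 0.06 (adjusted p = 0.0252). Channel levels of Mrpl49 and Mrps33 did not overlap, while those of Mrps23 did.

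Of the 4 lower genes, Mrps15, the counterpart of a bacterial protein that binds the small subunit rRNA early in assembly, differed most. Its ratios were -0.34, -0.26, -0.38 and -0.30, a mean of -0.32 ± 0.06 (limma adjusted p = 0.0159). Mutant levels from 13.11 to 13.20 all lay below the wild-type levels, from 13.45 to 13.53. Mrpl52, a large subunit protein found only in mitochondria, had ratios of -0.25, -0.16, -0.22 and -0.23 and a mean of -0.22 ± 0.04 (adjusted p = 0.0272). Mrpl24, whose bacterial counterpart starts large subunit assembly, gave -0.27, -0.10, -0.28 and -0.15, a mean of -0.20 ± 0.09 (adjusted p = 0.0481). Mrpl38, another large subunit protein without a bacterial counterpart, gave -0.32, -0.16, -0.16 and -0.16, a mean of -0.20 ± 0.08 (adjusted p = 0.0451), and its value on array 1 stood apart from the other three. For each of the 4 the mutant and wild-type levels did not overlap.

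**Figure D2:**
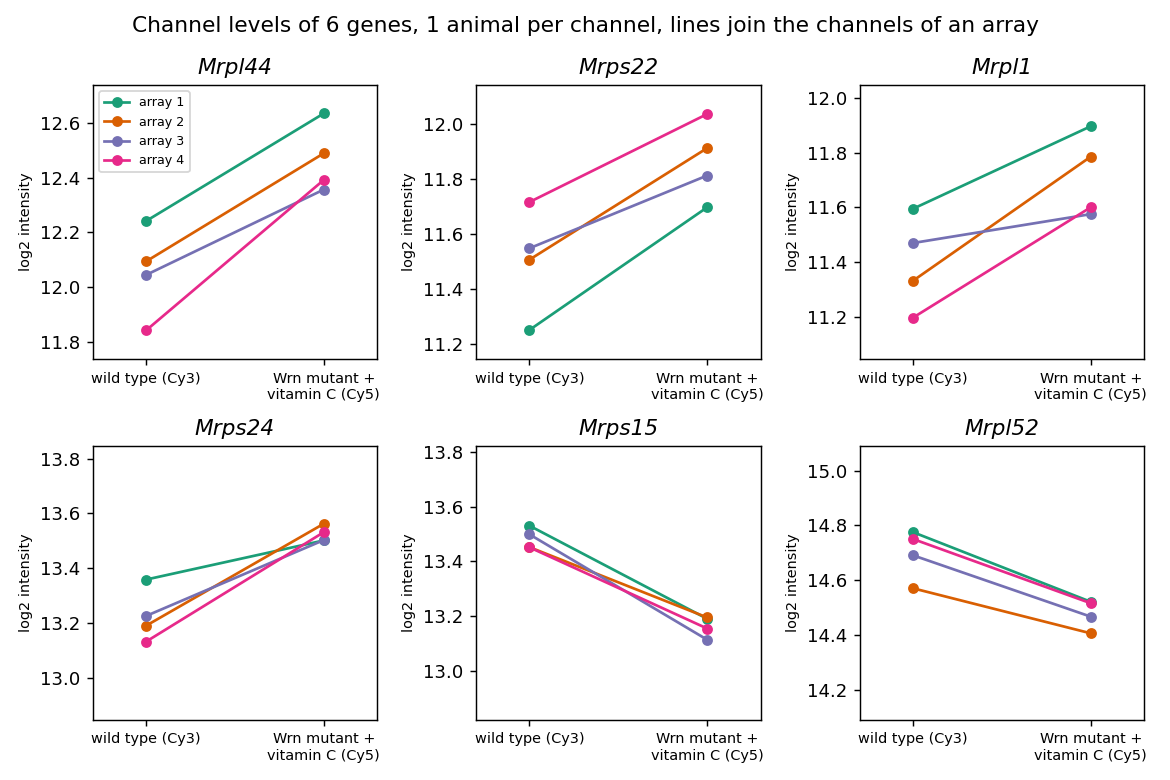
Log2 intensity (y axis, each panel spanning 1 unit) of 6 genes in the wild-type (Cy3) and mutant (Cy5) channels, with a line joining the animals of 1 array. The lines of Mrpl44, Mrps22, Mrpl1 and Mrps24 all rise and those of Mrps15 and Mrpl52 all fall, and in Mrps22 the mutant of array 1, at 11.70, lies below the wild-type animal of array 4, at 11.72.

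In all, the channel levels did not overlap for 13 of the 76 genes (17.1%), against 7.5% of all genes, and 8 of these 13 were among the 11 changed genes. Close to the threshold, 6 genes had an adjusted p between 0.05 and 0.10. Just outside it was Mrpl12, the stalk protein that recruits translation factors to the large subunit, with ratios of -0.29, -0.23, -0.32 and -0.05, a mean of -0.22 ± 0.12 and a limma adjusted p of 0.05004. Its ratio on array 4 was the small one. Mrpl40, a large subunit protein, followed at 0.16 ± 0.04 (adjusted p = 0.0540), with 0.12, 0.18, 0.14 and 0.19 on the arrays. Mrps36, the gene outside the ribosome, had a log2 ratio of 0.07 ± 0.10 (adjusted p = 0.386).

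Between the arrays the 76 genes shifted together. On array 3 the ratio was below 0 for 53 of them and above 0 for 23, with a median of -0.05, whereas 45, 60 and 56 were above 0 on arrays 1, 2 and 4, with medians of 0.03, 0.09 and 0.10. The median over all genes was 0.03 on array 3. Across the 76 genes, which are not independent, r between any pair of arrays was 0.687 to 0.759, against 0.376 to 0.573 over all genes. This r compares the pattern of ratios over genes and is not changed by a shift common to them. The 76 genes were also brighter, with a median log2 intensity of 13.1 against 9.92 for all genes. Red cell transcripts differed between the arrays in another order: the beta globin gene Hbb-b1 had ratios of -1.68, 0.12, 2.17 and -0.42, highest on array 3. The part of blood RNA in the shift of array 3 was not tested.

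**Figure D3:**
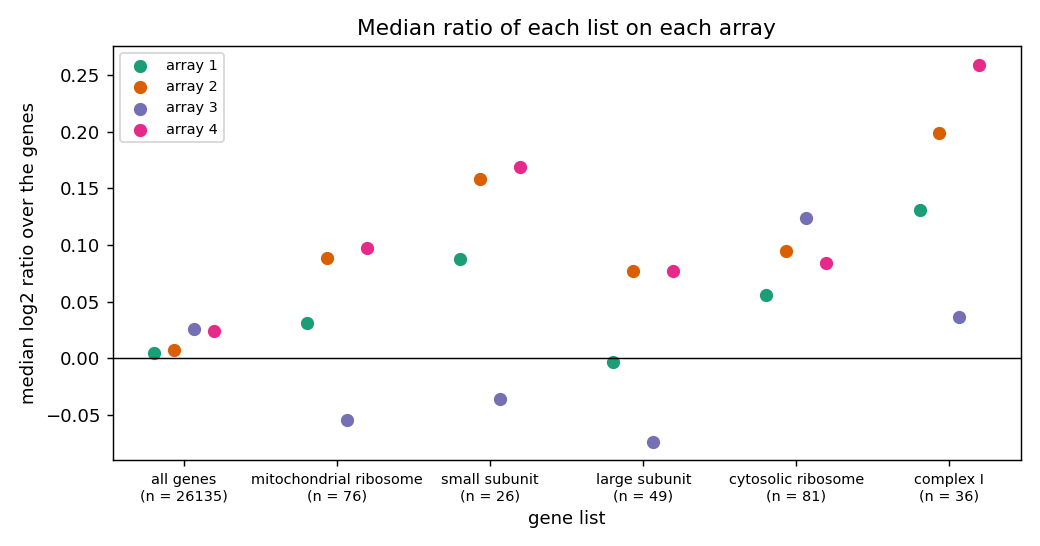
Median log2 ratio (y axis) over the genes of each list (x axis, with the number of genes) on each array, 1 dot per array. Mitochondrial ribosomal protein genes have medians from -0.05 on array 3 to 0.10 on array 4, complex I subunits are at 0.04 on array 3 and 0.26 on array 4, and for the cytosolic ribosome array 3 is the highest, at 0.12.

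Both subunits held higher and lower genes. In the small subunit 4 of 26 were higher and 1 was lower, with a median log2 ratio of 0.10, and in the large subunit 3 of 49 were higher and 3 lower, with a median of 0.02. That is 19.2% and 12.2% past the test, against 12.2% of all genes. No test of the difference between subunits was made, since genes are not replicates, and the small subunit median was above the large subunit median on each array. With median centring in place of loess the small and large subunit medians were 0.24 and 0.22. Among 48 genes with a bacterial counterpart, 2 were higher (Mrpl1 and Mrps24) and 2 lower (Mrps15 and Mrpl24), with a median of 0.02. The 27 proteins specific to mitochondria gave 5 higher and 2 lower, with a median of 0.07. Past the test were 8.33% of the former and 25.9% of the latter, against 12.2% of all genes. With median centring in place of loess, described below, the medians were 0.23 and 0.22, with 19 and 11 genes higher and 0 lower. The ratio of a gene ran weakly against the GC content of its probe, with r = -0.372 and rho = -0.361 over the 76 probes. The 7 higher genes had probes of 35% to 45% GC and the 4 lower ones of 40% to 51.7%. Whether probe composition plays a part was not tested.

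Different probes of a gene often differed in whether they passed. Of the 76 genes 33 had more than 1 measured probe: in 18 no probe passed, in 15 some passed and others did not, and in 0 did every probe pass in the same direction. This includes the 8 changed genes with a further probe. Matching counts for all genes with more than 1 probe are not given here, so these counts mark no trait of the 76. Probes that differ in passing can have similar values, as in Mrpl38 below. Over the 124 measured probes of these genes 13 were higher and 9 lower (17.7% past), against 13% of all 39080 probes. The best support from a further probe was in Mrps33 and Mrpl1. For Mrps33 a probe for another transcript gave 0.33 ± 0.11 (limma adjusted p = 0.0195 over all probes). It was the dimmest Mrps33 probe, at a mean log2 intensity of 8.96 against 14.56 on the brightest. The remaining Mrps33 probe gave 0.16 ± 0.10 (adjusted p = 0.0842). For Mrpl1 the further probes gave 0.41 ± 0.24 (adjusted p = 0.0335) and 0.04 ± 0.09. All 3 probes of Mrpl38 lay at similar values, at -0.20, -0.21 and -0.22, and only the brightest passed.

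The further probes of the other changed genes fell nearer to 0 or on its other side. For Mrpl44 they gave 0.11 ± 0.17 and 0.15 ± 0.13, and for Mrpl49 -0.04 ± 0.12 and 0.03 ± 0.18. Mrps15 had a second, much dimmer probe at 0.07 ± 0.07, which the annotation assigns to another transcript. Mrpl52 had dimmer probes at 0.08 ± 0.05 and 0.10 ± 0.32, also assigned to other transcript records, the latter at a mean log2 intensity of 7.83. Mrps22, Mrps24 and Mrpl24 each rest on 1 probe. When all probes of a gene were averaged instead, 5 genes were higher and 2 lower, which is 9.21% of the 76 against 10.4% of all genes. Of the 11 changed genes Mrps22, Mrps24, Mrps33, Mrpl24 and Mrpl38 then kept their call, and Mrpl40 (0.18) and Mrps18c (0.25) were added.

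**Figure D4:**
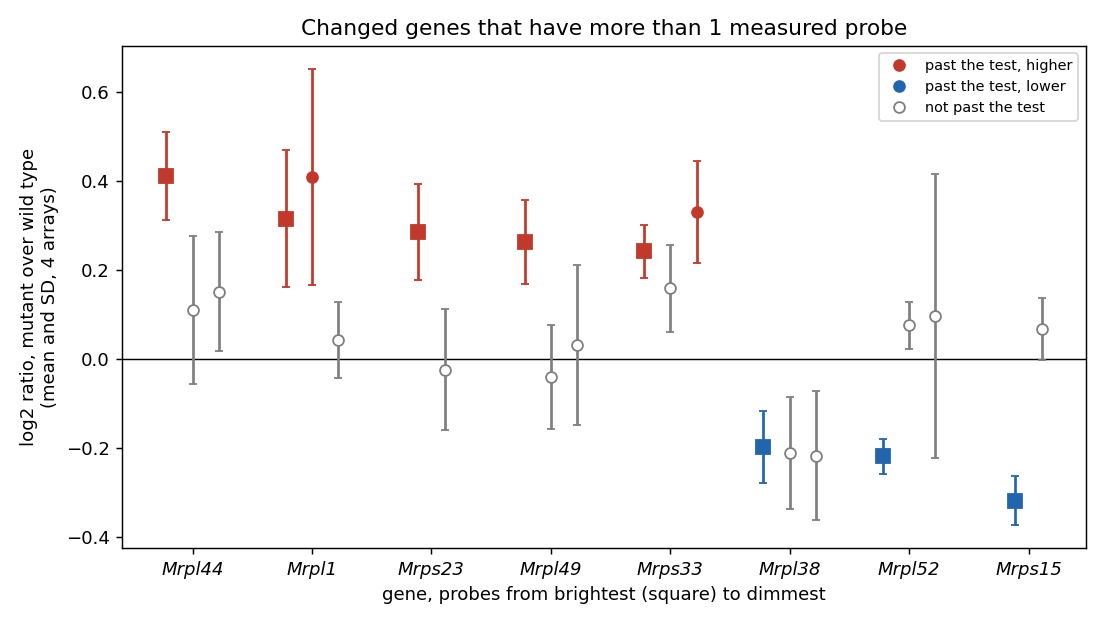
Mean log2 ratio and SD over the 4 arrays (y axis) of each measured probe of the 8 changed genes with more than 1 probe (x axis), the square marking the brightest, which stands for the gene, and open symbols the probes that did not pass. Only Mrpl1 and Mrps33 have a second filled symbol, and the open symbols of Mrps23, Mrpl49, Mrpl52 and Mrps15 lie near 0.

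Probes also differed in part where they read adjoining stretches of one mRNA. In 2 genes a pair of the 60-base probes shared bases end to end. The 30 bases at the joining end of each are given here from the deposited annotation, 5′ to 3′, with the shared bases in capitals, 21 of them in Mrps23 and 24 in Mrpl40.
Mrps23, brighter probe: GTCAGAAAGCTTTTGATCTCTtcaacccaa
Mrps23, dimmer probe: atggatctgGTCAGAAAGCTTTTGATCTCT
Mrpl40, upstream probe: aggtccCTGAAGGCAGGTACAATGATATCA
Mrpl40, downstream probe: CTGAAGGCAGGTACAATGATATCAccaagg
The brighter Mrps23 probe gave 0.29 ± 0.11 and passed, while its neighbour gave -0.02 ± 0.14 (limma adjusted p = 0.815 over all probes), with ratios of 0.00, 0.05, -0.22 and 0.08. Both read array 3 as the lowest of the 4. The Mrpl40 pair differed little, at 0.18 ± 0.06 (adjusted p = 0.0475) and 0.22 ± 0.04 (adjusted p = 0.0277), and both passed, though the third and brightest Mrpl40 probe, at 0.16, did not.

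In 7 genes that had not passed on their brightest probe, a dimmer one did. Mrps18c was higher at 0.37 ± 0.10 on its second probe against 0.13 ± 0.09 on the brightest, and Mrpl50 at 0.22 ± 0.09 against 0.12 ± 0.15. Mrpl40, above, was the third that was higher. Lower were Mrpl28, at -0.23 ± 0.11 against 0.01 ± 0.09, and Mrps25, at -0.36 ± 0.22 against 0.14 ± 0.10. Mrps5 and Mrps9, small subunit proteins with bacterial counterparts, had -0.33 ± 0.06 and -0.39 ± 0.18 on their dimmest probes against 0.10 ± 0.11 and -0.04 ± 0.09 on the brightest. The lower probes of Mrps25, Mrps5 and Mrps9 had low mean log2 intensities, of 7.90, 8.01 and 7.26, against 9.18, 11.93 and 12.40 on the brightest. For Mrps5 and Mrps9 the annotation assigns them to another transcript record than the brightest probe. The largest difference between probes of 1 gene was 0.49 on the log2 scale, in Mrps25, and the median over 65 pairs was 0.12.

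Known regulators of these genes include the transcription factor NRF1, the GABP complex of the ETS family, and YY1, so their motifs were looked for in the promoters. RefSeq windows of assembly GRCm38.p6, from 250 bases before to 50 after the start of transcription, were found for 67 of the 76 genes, 10 of the 11 changed ones among them. The ETS core CCGGAAG, read on both strands, was in 35.8% of these genes against 9.93% of 27025 RefSeq genes of any type. AAGATGGC, for YY1, was in 17.9% against 3.19%, and the palindromic NRF1 motif in 4.48% against 1.07%. By window, 8.86%, 2.75% and 0.971% of all 32851 windows held the 3 motifs. The ETS core was in 3 of 7 higher genes, 1 of 3 lower genes and 20 of 57 that did not pass. The YY1 motif was in 2, 0 and 10 of these, and the NRF1 motif in 0, 0 and 3. In 2 of the changed genes an ETS core lay before the start, and these opposite cases are given, 5′ to 3′ on the gene's strand, with the ETS core in capitals. They are Mrps22, higher (chr9:98601680-98601929, minus strand), and Mrpl52, lower, where the core is on the other strand (chr14:54426659-54426908, plus strand).
Mrps22: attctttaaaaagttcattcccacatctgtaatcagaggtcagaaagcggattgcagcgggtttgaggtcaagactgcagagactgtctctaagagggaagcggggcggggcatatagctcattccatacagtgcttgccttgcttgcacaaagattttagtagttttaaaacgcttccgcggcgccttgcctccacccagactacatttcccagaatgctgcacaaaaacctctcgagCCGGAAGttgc
Mrpl52: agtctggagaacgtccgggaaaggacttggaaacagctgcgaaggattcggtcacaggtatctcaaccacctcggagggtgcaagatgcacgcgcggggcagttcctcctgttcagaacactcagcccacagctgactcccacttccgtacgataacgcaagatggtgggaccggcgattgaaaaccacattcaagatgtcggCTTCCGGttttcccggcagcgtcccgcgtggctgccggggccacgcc
A match is a run of letters and not a measured binding site.

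In other parts of the mitochondrial translation apparatus most genes did not pass the test, as over the whole array. Of 8 ribosomal or ribosome-associated proteins that carry other symbols, 1 was higher, the small subunit protein Chchd1 at 0.25 ± 0.11 (limma adjusted p = 0.0357). The second Chchd1 probe also passed, at 0.28 ± 0.17. The median of the 8 was -0.04, with Oxa1l, which is not a ribosomal protein, counted among them. None of 15 translation factors and accessory proteins passed limma, with 2 at an unadjusted p under 0.05. The lowest p-values were those of the initiation factor Mtif2, at -0.16 ± 0.12 (adjusted p = 0.110), and the elongation factor Tsfm, at -0.16 ± 0.14 (adjusted p = 0.126). Of 17 mitochondrial aminoacyl-tRNA synthetases 15 did not pass, and the median was 0.04. The valyl enzyme Vars2 was lower, at -0.30 ± 0.09 (adjusted p = 0.0207), with a second Vars2 probe at -0.16 ± 0.11. Of 23 genes of ribosome assembly and rRNA modification only the RNA helicase Ddx28 was lower, at -0.26 ± 0.13 (adjusted p = 0.0354), 0 were higher, and 9 had an unadjusted p under 0.05. These unadjusted counts stand beside 8421 of 26135 genes and unnamed probes over the whole array. In the order of these lists 12.5%, 0%, 11.8% and 4.35% were past the test, against 12.2% of all genes.

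Of 12 measured genes of mitochondrial transcription, DNA replication and mRNA stability, 9 did not pass (1 higher, 2 lower; median -0.06). That is 25% past the test, against 12.2% of all genes. Mterfd3 (now Mterf2), a DNA-binding termination factor relative, was higher, with ratios of 0.43, 0.55, 0.58 and 0.62 and a mean of 0.55 ± 0.08 (limma adjusted p = 0.00776). Lrpprc, which stabilises mitochondrial mRNAs, was lower at -0.23 ± 0.09 (adjusted p = 0.0331), with its second probe at -0.24 ± 0.10. Peo1, the gene of the Twinkle helicase, was lower at -0.34 ± 0.17 (adjusted p = 0.0307) on its brightest probe and at -0.08 ± 0.09 on the other. Of 9 nuclear regulators 6 did not pass (1 higher, 2 lower; median -0.10), which is 33.3% past the test. Myc was higher, at 1.24, 0.39, 1.27 and 0.86 and a mean of 0.94 ± 0.41 (adjusted p = 0.0174), and all 3 of its probes passed. The coactivator gene Pprc1 was lower at -0.51 ± 0.30 (adjusted p = 0.0338), and so was Gabpb1, a subunit of GABP, at -0.21 ± 0.11 (adjusted p = 0.0483), although 1 of its 4 probes had the opposite sign, at 0.17. Of the 4 measured transcripts that the mitochondrial ribosome translates, ATP6 was higher at 0.26 ± 0.10 (adjusted p = 0.0300), with its second probe at 0.16 ± 0.08, which did not pass (limma adjusted p = 0.0761 over all probes). The other 3, ND4, COX2 and CYTB, were at 0.07, 0.05 and -0.05.

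Set beside related complexes, the mitochondrial ribosome had fewer calls. Of 81 cytosolic ribosomal protein genes 21 were higher and 0 lower (median 0.08), with Rps27a at 0.44 and Rpl37a at 0.39, and of 36 complex I subunits 14 were higher and 1 lower (median 0.15), with Ndufb10 at 0.37 and Ndufa4 at 0.34 against Ndufv1 at -0.26. For the mitochondrial ribosome, cytosolic ribosome and complex I, 14.5%, 25.9% and 41.7% passed, against 12.2% of all genes. The difference between the lists was not tested. They also differed in brightness, with a median log2 intensity of 13.1 for the mitochondrial ribosome, 15.8 for the cytosolic ribosome, 15.1 for complex I and 9.92 for all genes.

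The counts of calls differed with how the dyes were balanced. Loess removes any trend of the ratio with intensity, and with it the ratio and intensity correlated at r = -0.02 across all genes. When each array was only centred on its median, that correlation was 0.515. The median of the 76 genes was then 0.22, against 0.03 for all genes, and 30 of the 76 (39.5%; 18.9% of all genes) were higher and 0 lower. With this scaling 64 of 81 cytosolic ribosomal protein genes (median 0.44), 25 of 36 complex I subunits (median 0.46) and all 4 mitochondrial transcripts were higher, and 0 of each lower. Over the whole array 69.3% of the calls were higher, against 54.4% after loess. The 7 higher genes remained called, Mrpl52 turned to 0.06, and Mrps15, Mrpl24 and Mrpl38 stayed below 0 at -0.17, -0.04 and -0.05 without passing. From Agilent's processed signals 3 were higher and 0 lower, which is 3.95% of the 76 against 3.1% of all genes. Of the 76, 18 had an unadjusted p under 0.05 in limma, against 6501 of 26135 over the whole array. Mrpl44 and Mrps22 kept their call, and the third higher gene was Mrps18c.

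**Figure D5:**
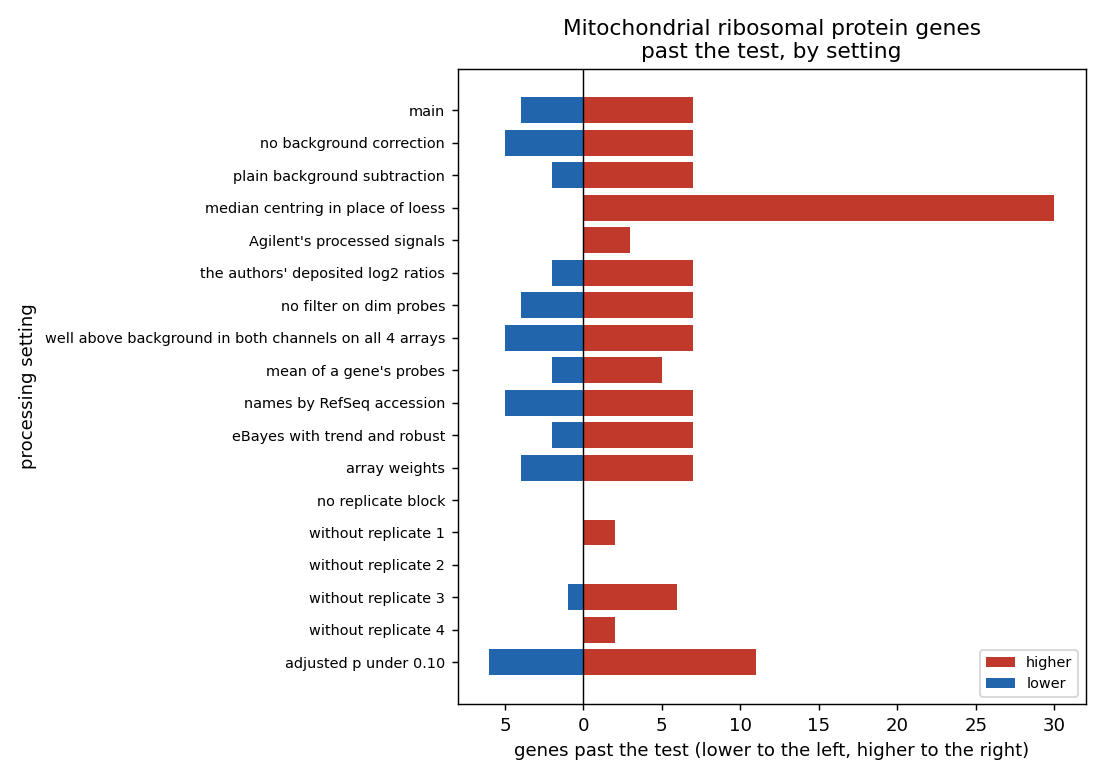
Number of mitochondrial ribosomal protein genes past the test (x axis, lower to the left of 0 and higher to the right) under each processing setting (y axis). The count is 7 higher with 2 to 5 lower in the top bar and in 8 of the 17 alternatives, goes to 30 and 0 with median centring, and to 0 and 0 without array 2 or without the pairing of channels.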

How the data were processed

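The scanner output came from Agilent Feature Extraction 10.5.1.1, per the file headers. As deposited, it gives median intensity and local background intensity per channel, background-subtracted and dye-normalized processed intensity, and a log10 ratio of red over green, by its column names. The table that the authors deposited gives a log2 ratio per array (an alternative here), p-values, and scores for each spot, with limma named in the submitters' processing notes. Here median intensities were corrected with normexp (offset 50) and loess in limma 3.58.1 (R 4.3.3). Control and outlier spots were left out, spots of a probe were averaged, and 39080 probes well above background on at least 3 arrays in either channel were kept. The brightest probe stood for a deposited symbol. Mean log2 ratios were tested against 0 with lmFit and eBayes over 26135 features. Channel levels, after Aquantile normalization, can carry dye bias. Pairing comes from the shared array: deviations of its channels correlated with r from 0.679 to 0.947. The fit was tested on simulated data.

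The 76 genes and all lists were chosen with earlier results of these data known. The text names every changed gene, the 5 highest and 5 lowest ratios, genes whose probes differ, and, for each list of other genes, the 2 largest changes per direction among those past the threshold, or the 2 smallest p-values where none was; other names were chosen after their values were seen. P-values measure the spread between 4 arrays, whose number limits the precision. The reference table matched all 76 symbols. One result among the aminoacyl-tRNA synthetases is not reported here.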

Additional observations from a re-analysis of the deposited data

Results flagged for a closer look

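For 4 of the 76 genes the ratio on 1 array lay far from the other three, by the gap to its neighbour over the whole range; chance alone flags about 1 gene in 20. Mrpl38 was at -0.32 on array 1 with the others between -0.16 and -0.16. Mrpl4, of the large subunit, was at -0.0428 on array 2 with the others between -0.19 and -0.18. Mrpl51, also of the large subunit, was at -0.21 on array 3, against -0.04 to -0.02 elsewhere, and Mrpl33 at 0.0774 on array 2, against 0.00 on each of the other arrays. Of the 4 only Mrpl38 was past the test.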

How the results depend on the processing

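The 76 genes gave 7 higher and 4 lower, and 3192 changed genes on the whole array. Under no background correction, no filter, the strict filter, RefSeq names (78 genes) or array weights the higher count was 7 and the lower 4 or 5, and all 11 calls were kept. With plain background subtraction, the authors' deposited ratios, or eBayes with trend and robust, 2 were lower, without Mrpl24 and Mrpl38. The mean of a gene's probes also gave 2 lower. Median centring gave 30 higher, 0 lower, a median of 0.22 and 4930 changed genes; Agilent's processed signals gave 3, 0 and 809. An adjusted p under 0.10 gave 11 higher, 6 lower (22.4% of the 76; 23.5% of all genes) and 6135 changed genes. Leaving out 1 array gave 0 to 6 higher, 0 to 1 lower, 19 to 1340 changed genes and a median from 0.02 to 0.08. With no replicate block, which ignores the pairing of channels on an array, 0 were higher, 0 lower and 24 genes changed. In limma 13 of the 76 then had an unadjusted p under 0.05, beside 2496 of 26135 over the whole array. The limma adjusted p of the 11 changed genes ran from 0.162 to 0.391.

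Ratios reversed with median centring in Mrpl52 (0.0572), Mrpl12 (0.0510) and Mrps9 (0.0535), with Agilent's processed signals in Mrps5 (-0.0211) and Mrps9 (0.0199), and with the mean of probes in Mrpl28 (-0.11), Mrps25 (-0.11) and Mrps5 (-0.0926). With 1 array left out, Mrpl28 ran from -0.0132 to 0.0518, below 0 without array 1 or 4, and Mrps9 from -0.0648 to 0.000653, above 0 without array 3. None of these was past the test there. The cause of these reversals was not tested.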
